A study of Homo sapiens with 9 samples.

Results

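The activator protein 1 (AP-1) transcription factors and the immediate early factors that accompany them were followed in U251 human glioblastoma cells after knockdown of the splicing regulator PTBP1. The genes were chosen by symbol: FOS, FOSB, FOSL1 and FOSL2 of the FOS family, JUN, JUNB and JUND of the JUN family, and ATF3, EGR1 and MYC. All 10 were present among the 22295 entries of the deposited expression table, of which 19932 carried a gene symbol, and all 10 were among the 15551 entries with a mean of at least 0.1 FPKM over the libraries that entered the tests. FPKM is a fragment count scaled for the length of the transcript and the size of the library, so levels of different genes can be set side by side. RNA-seq had been performed on 9 libraries in 3 groups of 3. U251, an established glioblastoma cell line, was infected with a lentivirus carrying a short hairpin RNA against luciferase, which has no target in these cells, and harvested at 3 days post infection (dpi; sh-Luci-3d), or with a lentivirus carrying a hairpin against PTBP1 and harvested at 3 dpi (sh-Ptbp1-3d) or 7 dpi (sh-Ptbp1-7d). In the reprogramming protocol of the study, cells infected with either virus were moved at 2 dpi to a neuronal induction medium that contains forskolin, an activator of adenylyl cyclase, and dorsomorphin. No library of sh-Luci cells at 7 dpi was analysed here, so in both comparisons that involve sh-Ptbp1-7d the knockdown, the time since infection and the time in this medium cannot be told apart. The knockdown rests on 1 hairpin and 1 cell line, and the labels do not say whether the libraries of a group came from separate cultures, so the p-values measure the spread between these libraries, which may be technical.

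AP-1 is a dimer of basic leucine zipper proteins. A FOS protein cannot pair with itself and needs a JUN partner, whereas JUN proteins also pair with each other, and ATF3 joins JUN proteins or acts alone, often as a repressor. FOS, EGR1 and JUN are immediate early genes: their promoters respond within minutes to signals such as growth factors, without new protein synthesis. FOS and EGR1 respond to growth factors, calcium and cAMP through serum response factor, ternary complex factors and CREB. The mRNAs of FOS, EGR1 and JUN are short-lived. In neurons these genes report activity, and in glioma FOSL1, FOSL2 and JUN are known for their link to the mesenchymal state. MYC, also an early gene of the growth factor response, drives ribosome production and proliferation when paired with MAX.

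RefSeq promoter windows on GRCh38.p14, each reaching from 250 bases before the start of a gene to 50 bases after it, matched 8 of the 10 genes in 9 windows, and none was used for FOSL1 and MYC. The bases before the start are shown for FOS and EGR1, the genes with the largest differences between groups among the 10, and for FOSB and JUNB, a FOS and a JUN family gene that differed less. Capitals mark TGACG, the core of the cAMP response element, TATAA, and the CArG box that binds serum response factor, searched on both strands, so that CGTCA is TGACG read on the other strand. The FOS stretch (chr14:75278678-75278773), the FOSB stretch (chr19:45467846-45467994), the EGR1 stretch (chr5:138465329-138465478) and the JUNB stretch (chr19:12791336-12791485) all lie on the + strand and end before the gene as GENCODE annotates it. Distances below are counted from the RefSeq start. In FOS and FOSB that start lies within the gene as GENCODE annotates it, so the bases just before it are not shown. In FOS these bases hold TATAA, 34 and 33 bases before the RefSeq start on either strand.
FOS: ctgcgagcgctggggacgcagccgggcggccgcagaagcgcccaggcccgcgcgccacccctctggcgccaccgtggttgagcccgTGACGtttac
FOSB: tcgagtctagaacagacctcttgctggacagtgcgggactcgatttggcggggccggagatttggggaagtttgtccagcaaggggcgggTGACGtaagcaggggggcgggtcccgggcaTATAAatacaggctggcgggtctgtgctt
EGR1: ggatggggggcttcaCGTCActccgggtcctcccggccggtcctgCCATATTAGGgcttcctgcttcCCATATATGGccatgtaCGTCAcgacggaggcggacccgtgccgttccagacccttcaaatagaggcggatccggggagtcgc
JUNB: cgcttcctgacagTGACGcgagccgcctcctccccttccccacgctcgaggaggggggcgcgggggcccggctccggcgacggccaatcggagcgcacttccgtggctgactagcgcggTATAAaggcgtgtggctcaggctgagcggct
Each of these 4 genes held TGACG, at 64 bases before the start in FOS, 60 in FOSB, 135 and 66 in EGR1 and 137 in JUNB, a match that 24.6% of all 35116 promoter windows contained. The windows of JUN, FOSL2 and JUND held it as well, and neither window of ATF3 did. Within the windows, EGR1 alone among the 8 matched genes held CArG boxes, 105 and 83 bases before its start, against 1.29% of all windows. Bases beyond the windows were not searched, so a CArG box farther from FOS or another gene would not be found. The whole element TGACGTCA was found in JUND, 200 bases before the start, and in 1.85% of all windows. TATAA was present in the windows of FOS, FOSB, JUNB, JUND and ATF3, and in 20.4% of all windows. The AP-1 site TGACTCA was found in the window of FOSL2, 5 bases after the start, and in 4.95% of all windows. These matches describe the letters of the windows and not binding.

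The targeted gene was read first. PTBP1 mRNA measured 116 ± 7.58 FPKM in the control sh-Luci-3d (mean ± SD, n = 3, as for every FPKM value and share with ± below), and after knockdown 63.9 ± 2.67 FPKM at 3 dpi and 50.5 ± 0.645 FPKM at 7 dpi, with no overlap between groups. The glioma and neural stem cell genes VIM, SOX2, CD44, NES and SOX9 were expressed in all groups, whereas the astroglial marker GFAP stayed at or under 1.15 FPKM in the 3 dpi libraries and CHI3L1 was 0 in all libraries. The 12 astroglial and glioma markers summed to 4490 to 4610 FPKM in the control, 4590 to 4900 FPKM after knockdown at 3 dpi and 1490 to 1580 FPKM at 7 dpi, and the 14 neuron markers to 490 to 527, 562 to 580 and 256 to 264 FPKM. VIM made up most of the first sum and averaged 4381 FPKM after knockdown at 3 dpi and 1169 FPKM at 7 dpi. TUBB3 (317 and 118 FPKM) and NEFL (216 and 92.7 FPKM) made up most of the second. Single markers went the other way: of 9 astroglial and glioma markers tested, 3 were called higher and 2 lower in both 7 dpi comparisons. That is 55.6% of the list, against 14.2% and 14.6% of all genes. SLC1A3, TNC and S100B were higher by 1.89, 1.61 and 2.08 on the log2 scale against sh-Ptbp1-3d. Among 11 neuron markers tested, MAP2 was higher by 0.94 against sh-Ptbp1-3d (adjusted p = 0.00058 by limma), SNAP25 was called higher by 1.69 against sh-Luci-3d, and 4 and 3 were called lower in the respective comparisons. The calls made up 36.4% of the neuron list in both comparisons. S100B and MAP2 are named after their values were seen. The part of these shifts in the results on AP-1 was not tested, and in bulk RNA fewer cells of a type and less RNA per cell cannot be told apart. The 12 blood and immune markers summed to between 0.696 and 1.41 FPKM per library. Among the 9 libraries, 2 stood apart. In sh-Luci-3d replicate 3, the 10% of genes with the highest GC content lay at a median of 0.42 above the other libraries of its group on the log2 scale, and the 10% with the lowest GC content had a median difference of -0.37. In sh-Ptbp1-3d replicate 3, the neuronal genes STMN2, DCX and ELAVL3 reached 11.5, 2.14 and 1.47 FPKM, against 0, 0.0346 and 0 FPKM at most in the other libraries of that group. Where leaving out either library changed the call of one of the 10 genes or of a locus beside them, both values are given. How many reads stand behind each value is unknown, because the FPKM values did not fall on multiples that 1 read would give.

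At 3 dpi the 10 genes differed little between knockdown and control cells. Not one of them met both criteria of the comparison in limma, a change of more than 2-fold and a false discovery rate (FDR) below 0.05, and none passed the FDR alone. Over all genes tested, 0.0129% passed both criteria and 0.0322% passed the FDR alone, so that very few genes of any kind were called in this fit. Without sh-Luci-3d replicate 3, 0.367% of all genes passed both criteria. The study itself reported many more genes for this comparison at the same thresholds. The reason for that difference was not tested. The log2 differences of the 10 genes ranged from -0.23 in ATF3 to 0.43 in FOS, 7 of them above 0, with a median of 0.16 against 0.01 over all genes. ATF3, a stress-induced repressor, was the 1 gene of the 10 with an unadjusted p under 0.05 (adjusted p = 0.63 by limma) and the 1 gene whose groups did not overlap, with 5.75, 5.57 and 5.30 FPKM in control libraries and 4.84, 4.72 and 4.57 FPKM after knockdown. Over all genes, 10.8% had groups that did not overlap in this comparison.

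The counts at 3 dpi depended on the control library that stood apart. JUNB measured 17.6, 16.0 and 26.4 FPKM in replicates 1, 2 and 3 of sh-Luci-3d and 25.8, 22.6 and 22.8 FPKM after knockdown, and JUND measured 81.9, 82.6 and 125 FPKM against 115, 110 and 117 FPKM. In both genes replicate 3 was the highest library of either group while replicates 1 and 2 lay below every sh-Ptbp1-3d library. Without replicate 3, JUNB and JUND were higher in sh-Ptbp1-3d by 0.49 and 0.47 on the log2 scale (adjusted p = 0.0133 and 0.0113 by limma), and 2 of the 10 genes passed the FDR alone, as did 6.34% of all genes in that setting. Their transcripts are rich in GC: JUNB has 64.9% and JUND 69.7%, above 95.9% and 99.5% of the genes tested, for which the median was 48.4%. The 10% of genes with the highest GC content were themselves higher in sh-Ptbp1-3d than in the 2 remaining sh-Luci-3d libraries, with a median log2 difference of 0.32. With all 9 libraries and no correction, the differences were 0.28 in JUNB and 0.27 in JUND (adjusted p = 0.751 and 0.749 by limma). After each library was corrected for GC content and transcript length, with all 9 libraries kept, they were 0.084 and -0.0068 (adjusted p = 0.726 and 0.978). The correction was not combined with leaving out sh-Luci-3d replicate 3, and the part of GC content in these differences was not tested. FOS was affected by both libraries that stood apart, since sh-Luci-3d replicate 3 was the highest of its group at 0.653 FPKM and sh-Ptbp1-3d replicate 3 the lowest of its group at 0.225 FPKM. Its log2 difference was 0.89 without the first alone and 0.78 without the second alone, and neither passed the FDR (adjusted p = 0.137 and 0.831). Leaving both out, a choice made after seeing the data, gave 1.25 in FOS (adjusted p = 0.0299), and 3 of the 10 genes, FOS, JUNB and JUND, then passed the FDR, against 3.74% of all genes.

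At 7 dpi FOS and EGR1 were several-fold higher than at 3 dpi, and ATF3, FOSL1, JUN and JUNB were higher by smaller amounts. Against sh-Ptbp1-3d, 3 of the 10 genes exceeded 2-fold at an FDR below 0.01, all of them higher at 7 dpi: FOS, EGR1 and ATF3. Over all genes tested, 14.2% passed these criteria, 8.31% with a higher and 5.9% with a lower level. The FDR alone was passed by 6 of the 10, all higher, with FOSL1, JUN and JUNB in addition, against 35.8% of all genes, 20.3% higher and 15.5% lower. The groups did not overlap in 8 of the 10, against 62.3% of all genes, and the median log2 difference was 0.72 against 0.092 over all genes. Against sh-Luci-3d, 3 of the 10 passed both criteria, all higher: FOS, EGR1 and JUNB. The background was 14.6% of all genes, 8.93% higher and 5.68% lower. The FDR alone was passed by 8 of the 10, against 35.6% of all genes. Of these 8, 7 were higher and MYC was lower, where 20.6% of all genes were higher and 15.0% lower. The groups did not overlap in 9 of the 10, against 55.9% of all genes. Both 7 dpi comparisons use the same sh-Ptbp1-7d libraries and are given side by side.

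FOS, the founding member of its family, was the lowest of the 10 genes at 3 dpi. It measured 0.173, 0.199 and 0.653 FPKM in control cells (sh-Luci-3d), 0.596, 0.563 and 0.225 FPKM after knockdown at 3 dpi (sh-Ptbp1-3d), and 2.38, 2.99 and 3.08 FPKM at 7 dpi (sh-Ptbp1-7d). Every 7 dpi library was above every 3 dpi library, while both 3 dpi groups overlapped. On the log2(FPKM + 0.1) scale, FOS was higher in sh-Ptbp1-7d by 2.45 ± 0.40 (SE) than in sh-Ptbp1-3d (adjusted p = 0.000511 by limma) and by 2.88 ± 0.40 than in sh-Luci-3d (adjusted p = 0.000166). Because the level at 3 dpi is near the added 0.1 FPKM, the fitted difference understates the ratio of the means, which was 6.11 and 8.24. The call held in all 21 alternative settings of both comparisons, with log2 differences from 1.39 to 2.71 and from 1.52 to 3.34.

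The other FOS genes changed less. FOSL1 (FRA-1) measured 3.66, 4.04 and 3.21 FPKM in control cells, 3.55, 3.67 and 3.06 FPKM after knockdown at 3 dpi, and 6.32, 5.98 and 5.96 FPKM at 7 dpi. Its 7 dpi libraries were all above its 3 dpi libraries, by 0.82 ± 0.12 over sh-Ptbp1-3d and by 0.73 ± 0.12 over sh-Luci-3d on the log2 scale (adjusted p = 0.000246 and 0.000492), under the fold change of 2. FOSL2 (FRA-2), the most abundant FOS gene in every group, measured 7.84, 7.78 and 8.76 FPKM in control cells, 8.74, 8.26 and 8.91 FPKM after knockdown at 3 dpi, and 11.7, 10.6 and 8.34 FPKM at 7 dpi. Its groups overlapped through sh-Ptbp1-7d replicate 3, and the differences of 0.22 and 0.31 (95% confidence intervals -0.05 to 0.49 and 0.04 to 0.58) did not pass the FDR (adjusted p = 0.155 and 0.0557). Without that library the second became 0.45 (adjusted p = 0.00564). FOSB, which neurons express after stimulation, measured 0.846, 0.787 and 1.004 FPKM in control cells, 1.04, 1.14 and 0.762 FPKM after knockdown at 3 dpi, and 1.45, 1.12 and 1.06 FPKM at 7 dpi. Its 7 dpi level differed by 0.28 from sh-Ptbp1-3d and by 0.41 from sh-Luci-3d (95% confidence intervals -0.17 to 0.73 and -0.03 to 0.86), which did not pass the test (adjusted p = 0.275 and 0.113). FOSB lies within the antisense gene ERCC1, which averaged 31.9 FPKM, and the sources used here do not say whether fragments were assigned by strand, so low FOSB values and ERCC1 reads cannot be told apart.

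EGR1, a zinc finger factor induced through the same serum response pathway as FOS, was higher in every library at 7 dpi. It measured 2.48, 3.03 and 3.17 FPKM in control cells, 4.08, 2.69 and 3.25 FPKM after knockdown at 3 dpi, and 18.8, 17.9 and 17.2 FPKM at 7 dpi. The coefficient of variation within the 7 dpi group was 4.49%, and both 3 dpi groups overlapped. EGR1 was higher at 7 dpi by 2.41 ± 0.15 than in sh-Ptbp1-3d and by 2.60 ± 0.15 than in sh-Luci-3d on the log2 scale (adjusted p = 4.82e-07 and 2.9e-07 by limma). The range over 21 alternative settings was 2.14 to 2.57 and 2.29 to 2.71, and EGR1 was called in each of them. At 3 dpi the difference was 0.19 (95% confidence interval -0.15 to 0.52).

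The JUN genes, the obligate partners of the FOS proteins, were far more abundant, and their log2 differences at 7 dpi were smaller than those of FOS. JUN (c-Jun, chr1:58780788-58784327, - strand), the main target of the JNK kinases, measured 29.6, 27.1 and 38.9 FPKM in control cells, 34.3, 35.5 and 38.1 FPKM after knockdown at 3 dpi, and 56.4, 60.5 and 50.04 FPKM at 7 dpi. All 7 dpi libraries were above all 3 dpi libraries, and the differences were 0.63 ± 0.13 and 0.82 ± 0.13 on the log2 scale (adjusted p = 0.0021 and 0.000367). The first missed the FDR when sh-Ptbp1-3d replicate 1 or sh-Ptbp1-7d replicate 2 was left out (adjusted p = 0.0105 and 0.0122). JUNB, which in many cells restrains JUN, measured 46.4, 43.4 and 41.1 FPKM in sh-Ptbp1-7d, above every 3 dpi library, and was higher by 0.88 ± 0.16 than in sh-Ptbp1-3d and by 1.15 ± 0.16 than in sh-Luci-3d (adjusted p = 0.000924 and 0.000138). JUND, the JUN gene of resting cells, measured 153, 159 and 181 FPKM in sh-Ptbp1-7d, also above every 3 dpi library. Its difference from sh-Luci-3d was 0.79 ± 0.15 (adjusted p = 0.00104), and that from sh-Ptbp1-3d, 0.53 ± 0.15, did not pass the FDR of 0.01 (adjusted p = 0.0118) but did so in 8 of the 21 alternative settings, among them the one without sh-Luci-3d replicate 3 (adjusted p = 0.000124). Without that library the differences from sh-Luci-3d were larger, at 0.97 in JUN, 1.37 in JUNB and 0.996 in JUND. Corrected for GC content and length, the differences from sh-Luci-3d were 0.58 in JUN, 0.93 in JUNB and 0.44 in JUND, each past the FDR, with JUNB then under the fold change of 2. The gene JUNB is spanned on the other strand by HOOK2, at a mean of 8.64 FPKM.

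ATF3 stood at 10.6, 10.1 and 9.34 FPKM in sh-Ptbp1-7d, above every 3 dpi library. It was higher at 7 dpi by 1.07 ± 0.092 than in sh-Ptbp1-3d and by 0.84 ± 0.092 than in sh-Luci-3d on the log2 scale (adjusted p = 4.94e-06 and 2.84e-05 by limma). The first lies close to the fold change of 2: it passed the FDR in all 21 alternative settings but was 0.95 with a pseudocount of 1, 0.98 with median-ratio scaling and 0.96 after quantile normalization.

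MYC was the 1 gene of the 10 with a lower level at 7 dpi. It measured 6.51, 5.43 and 6.78 FPKM in control cells, 5.69, 6.15 and 4.56 FPKM after knockdown at 3 dpi, and 4.21, 2.70 and 3.72 FPKM at 7 dpi. Every 7 dpi library was below every 3 dpi library. On the log2 scale MYC fell by 0.82 ± 0.18 against sh-Luci-3d (adjusted p = 0.00274). Without sh-Luci-3d replicate 1 or sh-Ptbp1-7d replicate 2, the adjusted p was 0.0114 and 0.0107, above 0.01, with log2 differences of -0.78 and -0.64. With sh-Luci-3d replicate 3 and sh-Ptbp1-3d replicate 3 both left out, it was 0.0125. Against sh-Ptbp1-3d the difference of -0.62 (95% confidence interval -1.01 to -0.24) missed the FDR of 0.01 (adjusted p = 0.0125), and it passed in 4 of the 21 alternative settings.

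**Figure D1:**
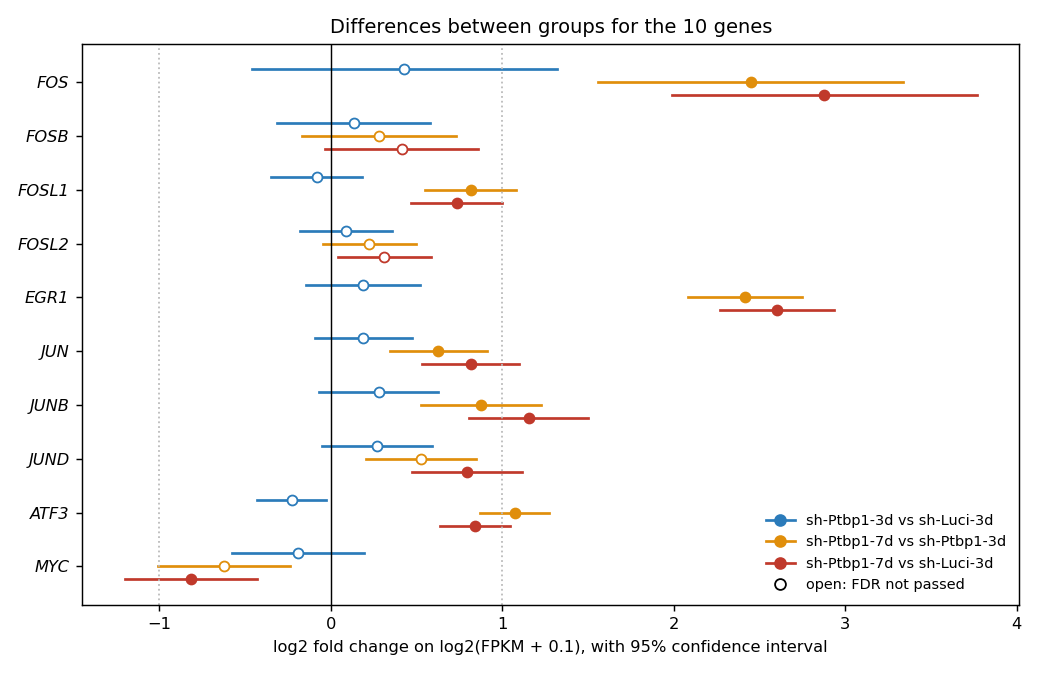
Log2 fold changes (horizontal axis, on log2(FPKM + 0.1)) of the 10 genes with 95% confidence intervals in the 3 comparisons, filled where the FDR was passed, with dotted lines at a 2-fold difference either way. All 3 dpi points are open, FOS and EGR1 lie above 2 in both 7 dpi comparisons, and MYC is the 1 gene to the left of 0 at 7 dpi.

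Set side by side per length, the mean levels kept one order at 3 dpi. JUND led in sh-Luci-3d with 96.5 ± 24.7 FPKM, above 96.3% of the genes tested, followed by JUN, JUNB, FOSL2, MYC, ATF3, FOSL1, EGR1, FOSB and FOS, the last at 0.342 ± 0.270 FPKM and above 14.0% of genes. The order was the same in sh-Ptbp1-3d. Neighbours in it whose libraries overlapped were MYC and ATF3 in both groups and FOSL1 and EGR1 in sh-Ptbp1-3d. At 7 dpi EGR1 had moved from the eighth to the fourth place at 18.0 ± 0.808 FPKM, above FOSL2, and FOS at 2.82 ± 0.377 FPKM was above FOSB at 1.21 ± 0.207 FPKM with no overlap. FOSL2 and ATF3 overlapped at 7 dpi, as did MYC and FOS.

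FOS took a larger share of its family at 7 dpi. Summed over FOS, FOSB, FOSL1 and FOSL2, the level was 13.0 ± 0.579 FPKM in control cells, 13.5 ± 0.499 FPKM after knockdown at 3 dpi, and 20.3 ± 1.72 FPKM at 7 dpi. The share of FOS in this sum was 2.58% ± 1.92 in sh-Luci-3d, 3.38% ± 1.43 in sh-Ptbp1-3d and 14.0% ± 2.91 in sh-Ptbp1-7d, where it ranged from 10.9% to 16.7%. FOSL2 supplied 62.6% ± 1.75, 64.0% ± 4.25 and 49.9% ± 4.25. FOSL1 stayed between 23.6% and 32.3% of the sum in every library. The JUN family summed to 148 ± 36.4, 174 ± 5.04 and 264 ± 8.21 FPKM, and JUND made up between 59.8% and 66.5% of it in every library. The JUN sum exceeded the FOS sum by a ratio of 11.4 ± 2.27 in sh-Luci-3d, 12.9 ± 0.746 in sh-Ptbp1-3d and 13.1 ± 1.55 in sh-Ptbp1-7d, ranges that overlapped. These are levels of mRNA and say nothing of the dimers formed. They are a description, with no test.

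**Figure D2:**
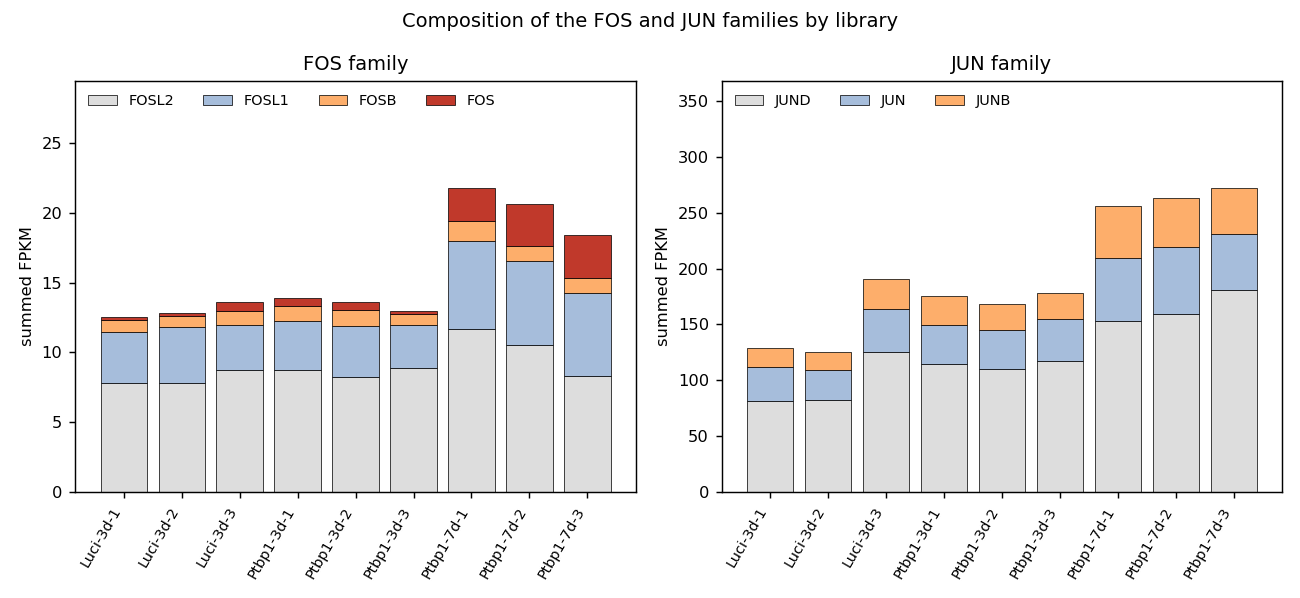
Summed FPKM (vertical axes, from 0) of the FOS family on the left and the JUN family on the right in each of the 9 libraries, with 1 bar per library divided by gene. The FOS segment is a thin strip at 3 dpi and 10.9% to 16.7% of the bar at 7 dpi, while the JUN bars grow with JUND remaining the main segment.

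Genes that work with or downstream of these factors were counted on lists chosen by textbook role. Earlier results of these data were known when the lists were written. The shares below, set beside those of all genes, describe the lists and are not a test. Among AP-1 and ATF basic leucine zipper partners, 4 of 19 tested were called higher and 1 lower at 7 dpi against sh-Ptbp1-3d, 26.3% of the list where 14.2% of all genes were called. BATF2, a partner of JUN proteins known from the interferon response, rose by 4.63 ± 0.20 on the log2 scale, from 0.508 to 14.7 FPKM. CEBPD, a factor of the acute phase response, rose by 1.45 and DDIT3 (CHOP), a factor of the integrated stress response, by 1.38. MAF fell by 1.30. The median of the list was 0.60, against 0.092 over all genes. Against sh-Luci-3d, 6 of 19 were called higher and none lower, CEBPB among them at 1.20. That is 31.6% of the list, against 14.6% of all genes. At FDR alone 11 of 19, or 57.9%, were higher there, against 20.6% of all genes.

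Other immediate early genes were divided. Of 35 tested, 5 were called higher and 1 lower at 7 dpi against sh-Ptbp1-3d, and 8 and 1 against sh-Luci-3d, with medians of 0.45 and 0.46. The first count is 17.1% of the list, close to the 14.2% of all genes called, and the second is 25.7%, against 14.6%. BTG2, an antiproliferative early gene, rose by 2.56 ± 0.16 from 0.718 to 4.72 FPKM. NR4A2, an orphan nuclear receptor of dopamine neurons, rose by 1.69, ZFP36L1, which destabilises AU-rich mRNAs, by 1.59, and NAB2, an EGR1 target that represses EGR1 in turn, by 1.54. The fifth, EGR2, reached 0.561 ± 0.344 FPKM and is named after its values were seen. ID1, an inhibitor of basic helix-loop-helix factors, fell by 1.33. At FDR alone against sh-Ptbp1-3d, 11 were higher and 5 lower, and 19 did not pass, so that 45.7% passed, against 35.8% of all genes.

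Of 22 kinases and factors upstream of AP-1, 3 were called higher and 1 lower in both comparisons. That is 18.2% of the list, against 14.2% and 14.6% of all genes, with medians of -0.16 and -0.11. Against sh-Ptbp1-3d, MAPK10 (JNK3), the neuronal JNK, rose by 1.40, MRTFA, a coactivator of serum response factor, by 1.30 and CRTC3, a coactivator of CREB, by 1.09, while RPS6KA1, a kinase below ERK, fell by 1.33. SRF itself differed by 0.12 (adjusted p = 0.478).

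Genes known as AP-1 targets changed in both directions. Of 25 tested, 5 were called higher and 11 lower against sh-Ptbp1-3d, and 6 and 11 against sh-Luci-3d, with medians of -0.25 and -0.34. These are 64.0% and 68.0% of the list, against 14.2% and 14.6% of all genes. NT5E, the ecto-5'-nucleotidase CD73, rose by 4.42 ± 0.23 from 1.72 to 37.5 FPKM. The cytokine genes IL6, CXCL8 and LIF rose by 1.58, 1.41 and 1.40, and TIMP1, an inhibitor of matrix metalloproteinases that is named after its values were seen, by 1.16. LAMB3, a laminin chain, and the cytokine gene IL11 fell, with log2 differences of -2.69 and -2.60. The chromatin protein gene HMGA1 fell by 2.54 from 77.3 to 13.2 FPKM. At FDR alone 9 were higher and 12 lower in both comparisons, and 4 did not pass. That is 84.0% of the list, against 35.8% and 35.6% of all genes.

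Around MYC, 1 of 10 partners and antagonists was called against sh-Ptbp1-3d, its dimer partner MAX, which rose by 1.05 from 11.9 to 24.8 FPKM, and none against sh-Luci-3d, where 2 were higher and 2 lower at FDR alone and 6 did not pass. Of 38 MYC target genes, none was called higher and 2 were called lower against sh-Ptbp1-3d: TFRC, the transferrin receptor, fell by 2.71 from 121 to 18.5 FPKM, and SLC7A5, a subunit of the large neutral amino acid transporter, fell by 1.98 from 198 to 50.2 FPKM. The 2 calls are 5.26% of the list, below the 14.2% of all genes, 8.31% higher and 5.9% lower. At FDR alone 2 of the 38 were higher, 11 lower and 25 did not pass, so that 34.2% passed, near the 35.8% of all genes. By direction, 20.3% of all genes were higher and 15.5% lower. The median of the list was -0.13, against 0.092 over all genes. Against sh-Luci-3d, FBL and LDHA were also called lower, with log2 differences of -1.07 and -1.06. The 4 calls there are 10.5% of the MYC target list, against 14.6% of all genes. No gene of any of these lists was called at 3 dpi.

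Assembled transcripts that carry no gene symbol lay within 50 kb of 3 of the 10 genes. MSTRG.1041 (chr1:58785013-58899795, + strand) begins 686 bases from JUN on the opposite strand and overlaps the long non-coding RNA LINC01135 on the same strand. It measured 0.264 ± 0.251 FPKM in control cells, 0.389 ± 0.117 FPKM after knockdown at 3 dpi, and 0.787 ± 0.345 FPKM at 7 dpi, and was not called in any comparison. Without sh-Luci-3d replicate 3 it was called against sh-Luci-3d, with a log2 difference of 2.03 (adjusted p = 0.00476, and 0.0316 with that library). MSTRG.2514 (chr1:212628536-212665522, - strand), 7759 bases beyond ATF3, was called against sh-Ptbp1-3d with a log2 difference of 1.83 ± 0.48 (adjusted p = 0.00842), at 0.610 ± 0.398 FPKM in sh-Ptbp1-7d against 0.0764 ± 0.0271 FPKM. That call was kept in 6 of 19 alternative settings, and was lost without sh-Ptbp1-3d replicate 3 (adjusted p = 0.0287). MSTRG.13404, 9683 bases from JUND, averaged 0.296 to 0.401 FPKM in the 3 groups and was not called. The loci that were not called are named after their values were seen.

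The genes whose profile over the 9 libraries lay closest to each factor were sought among 11340 genes by the root mean square difference of centred log2 values. For FOS these were ETV4, an ETS factor, at 0.31, ODF3B at 0.35 and the histone gene H4C15 at 0.37. ETV4 measured 0.599 ± 0.202 FPKM in control cells and 5.32 ± 0.0958 FPKM after knockdown at 7 dpi. EGR1 was closest to C1QTNF1 at 0.13, KCNE4 at 0.13 and the histone gene H3C14 at 0.17, and its difference from FOS was 0.48. For JUND the closest genes were C4orf48 at 0.052, IRF2BP1 at 0.072 and RRP7A at 0.082, with GC contents of 73.2%, 68.5% and 57.8%. The part of GC content in the likeness of profiles was not tested. JUN was closest to IRF2BPL, MEIS3 and STOML1, JUNB to IGFBP2, TIGD5 and RABAC1, and ATF3 to YEATS2, ZNF805 and NUB1. FOSL1 was closest to ATAD2B, ZNF211 and PTPRA, FOSL2 to KDM5C and PTPRS, and FOSB to ZNF71, SCART1 and POLR1H. The differences for these 6 factors lay between 0.047 and 0.0857. MYC was closest to SLC26A6 at 0.12, WDR62 and TBCB. The genes share libraries and scaling, so this is a description.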

How the data were processed

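RNA-seq of 9 libraries of U251 cells, 3 per group, was analysed from 1 table of FPKM values that the authors deposited, with groups taken from the labels. The submitters' processing notes name HISAT2 and GRCh38. The quantification program, its annotation and the use of strand are not given in the sources used here, and depth is unknown. The authors also deposited a table of transcript positions (chromosome, start, end), read here for assembled loci. Genes whose mean over the libraries reached 0.1 FPKM were tested on log2(FPKM + 0.1) with limma 3.58.1 in R 4.3.3, in 1 model of the 3 groups over all 9 libraries with an intensity trend, and the Benjamini-Hochberg adjustment covered all genes tested. Genes were called at a fold change above 2 with FDR below 0.05 at 3 dpi, the thresholds of the study, and below 0.01 in both 7 dpi comparisons. With 3 libraries against 3, an exact permutation test cannot go below p = 0.1 and was not used for single genes.

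The 10 genes and the lists were chosen with earlier results of these data known. The text names the 10 genes, PTBP1, up to 4 called genes averaging 1 FPKM or more per list, comparison and direction, the 3 nearest genes per factor, and called assembled loci within 50 kb, with exceptions marked in the text. The values of 2 called list genes and 1 nearest gene are not reported here. Fits were tested on simulated data. Gene positions and transcript GC content came from GENCODE on GRCh38, promoters from RefSeq. Alternatives were 2 pseudocounts, 2 filters, TPM, median-ratio and quantile scaling, no trend, a replicate block, fits of 2 groups, and each library left out. Another 2 alternatives were added after seeing the data: 2 libraries that stand apart left out together, and a GC and length correction. Same-numbered libraries did not deviate together (r from -0.0317 to 0.0512), so replicate numbers were not used as pairs.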

Additional observations from a re-analysis of the deposited data

How the results depend on the processing

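Over 21 alternative settings, the count of the 10 genes called was 2 to 3 against sh-Ptbp1-3d and 2 to 3 against sh-Luci-3d at 7 dpi, and at FDR alone 5 to 8 and 7 to 9. Over all genes, 8.07% to 15.2% and 8.16% to 15.4% were called in these settings. At FDR alone 26.6% to 47.9% and 26.7% to 47.9% of all genes passed. At 3 dpi the count of the 10 genes called was 0, except when sh-Luci-3d replicate 3 and sh-Ptbp1-3d replicate 3 were both left out, a setting added after seeing the data. There 1 was called and 3 passed the FDR, against 0.231% and 3.74% of all genes. At FDR alone 0 to 2 passed when single libraries were left out. The 2 were without sh-Luci-3d replicate 3, where 6.34% of all genes passed. Over all genes at 3 dpi, where 2 were called, 1 was called with a pseudocount of 0.01, TPM, median-ratio scaling, a minimum mean of 1 FPKM, quantile normalization or no trend, and 0 with the replicate block and with only the 2 groups compared. It was 4 with the GC and length correction, also added after seeing the data, 36 with both libraries left out, and 0 to 57 with single libraries left out, 57 being without sh-Luci-3d replicate 3. A pseudocount of 1 lowered the 7 dpi counts from 2211 to 1255 and from 2271 to 1269, and leaving out single libraries gave 2019 to 2229 and 2081 to 2272. It also lowered the calls among basic leucine zipper partners against sh-Ptbp1-3d from 5 to 3, among other immediate early genes against sh-Luci-3d from 9 to 5, and MAX from 1 to 0, while MYC partners gave 2 without sh-Ptbp1-3d replicate 2 or sh-Ptbp1-7d replicate 1. PTBP1 at 3 dpi was -0.85, and its adjusted p of 0.00314 became 0.0583 with the replicate block, 0.0821 with only the 2 groups compared, and 0.0579 without sh-Ptbp1-3d replicate 3. Its value ranged from -0.88 to -0.80 without single libraries. Over all 21 settings it ranged from -0.99 with the GC and length correction to -0.77 with both libraries left out. At 7 dpi PTBP1 ranged from -0.37 to -0.31 and from -1.22 to -1.14 without single libraries. Over all 21 settings these ranges were -0.47 to -0.24 and -1.47 to -1.11. Against sh-Ptbp1-3d PTBP1 missed the FDR without replicate 1 or 2 of sh-Ptbp1-3d or of sh-Ptbp1-7d (adjusted p up to 0.0168). The replicate block brought JUND past the FDR against sh-Ptbp1-3d (adjusted p = 0.00618 by limma), still under the fold change of 2. It changed no other FDR result and no call of the 10 genes. Same-numbered libraries share only a number. Quantile normalization moved the median log2 difference of all genes at 7 dpi from 0.0924 to -0.0087 and from 0.0993 to -0.0139. The share of calls that were higher moved from 58.5% to 49.0% and from 61.1% to 49.3%. The 10 genes kept their directions except JUND at 3 dpi, which was -0.0068 with the GC and length correction. The locus MSTRG.13404 changed sign: without single libraries it ranged from -0.62 to 0.19 at 3 dpi, from -0.076 to 0.52 against sh-Ptbp1-3d and from -0.395 to 0.42 against sh-Luci-3d, and it was 0.27 at 3 dpi and 0.42 against sh-Luci-3d with both libraries left out, 0.0056 against sh-Luci-3d with a pseudocount of 0.01 and 0.070 with TPM. MSTRG.2514 ranged from -0.53 to 0.0067 at 3 dpi without single libraries. The cause of these changes was not tested. Depth being unknown, low values such as those of FOS at 3 dpi have no counting interval.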
